A study of Mus musculus with 10 samples.

Results

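The genes described here run cell division: the spindle assembly checkpoint, the CDK1 switch and its kinases, the kinetochore, the spindle motors, chromosome condensation, anaphase and cytokinesis. A list of 46 such genes was named, and every probe set listed under exactly 1 of these symbols was taken. That gave 102 of the 45101 probe sets of the array and 45 of the 46 genes. Ccnb1 was not analysed here. Of the 102 probe sets, 96 lay above the median of their array in at least 2 arrays and were kept, and all 45 genes had at least 1 of them. For each gene the brightest kept probe set was used, as for the 13251 genes of the whole array.

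The arrays are Affymetrix GeneChip 430 2.0, which read a transcript with 1 or more sets of short probes. AG-haESC are haploid embryonic stem cells from androgenetic blastocysts, whose genome comes from the father only, on the C57BL/6J strain. There were 5 lines with 1 array each: AGH-OG-1, AGH-OG-2, AGH-OG-3 and AGH-OG-4 with an Oct4-EGFP transgene (replicates 1, 2, 4 and 5, at passages 14, 15, 12 and 14) and AGH-EG-1 with an Actin-EGFP transgene (replicate 3, at passage 15). E14 is a wild type stem cell line, diploid and male, of the strain 129/Sv, with 3 arrays of that line at passage 17. MEF are wild type embryonic fibroblasts, male, B6D2F1, isolated at d13.5, with 2 arrays at passage 2. Whether these 2 samples share an embryo was not stated in the sources used here. All cells were stained with 15 µg/ml Hoechst 33342 and sorted by DNA content, the haploid 1n peak of AG-haESC and the 2n peak of E14 and MEF, which the submitters describe as cells in G1 or G0. The haploid lines grew on feeder cells in stem cell medium with the inhibitors CHIR99021 and PD0325901. For E14 and MEF the medium was not stated in the sources used here. Between AG-haESC and E14, ploidy, parental origin, strain, passage and transgene differ at once and cannot be told apart. Whether culture differed as well is not known here.

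As background, most of these genes are transcribed in waves: they are repressed in G1 and activated towards G2 and mitosis, when their proteins build the spindle and attach it to chromosomes. The checkpoint holds the cell before anaphase until every kinetochore is attached, and its release lets the anaphase-promoting complex destroy cyclin B and securin, so that separase can cut cohesin. Embryonic stem cells cycle fast with a short G1, and haploid stem cells tend to become diploid in culture. The submitters name the influence of such cells as the reason for the sort.

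Signals were read on the log2 scale, and a level below is a log2 signal. Levels of different genes come from different probes and were not set against each other. A gene is called higher or lower when limma's adjusted p (Benjamini-Hochberg over all 13251 genes) lies below 0.05 and the difference is at least 2-fold. Array medians on the linear scale ranged from 55.9 to 68.0, with the trimmed mean at 500 in every array. Replicate 3 of E14 stood apart from its group: across genes its log2 signals correlated at r = 0.925 and 0.922 with the other E14 arrays, which correlated at 0.968 with each other. All 45 genes lay above the array median in all 10 arrays at the probe set used. In bulk samples of this kind, fewer cells of a type and less RNA per cell cannot be told apart.

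The mitotic genes separated both stem cell groups from fibroblasts. Between haploid and diploid stem cells few of them were called, as was so for genes at large. Of the 45 genes, 43 were higher in AG-haESC than in MEF, where 19.7% of all genes were higher, and 42 were higher in E14 than in MEF, where 20.9% were. The comparison of AG-haESC with E14 called 2 of the 45 higher and none lower, against 4.58% and 3.74% of all genes (8.32% in either direction). The 2 were Nuf2, a subunit of the kinetochore complex that binds microtubules, and Kif4, a motor that travels with chromosomes and the central spindle. Among the 45, 7 had an unadjusted p below 0.05 with a lower level in AG-haESC and 8 with a higher level (15.6% and 17.8%), against 17.2% and 13.4% of all genes.

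**Figure D1:**
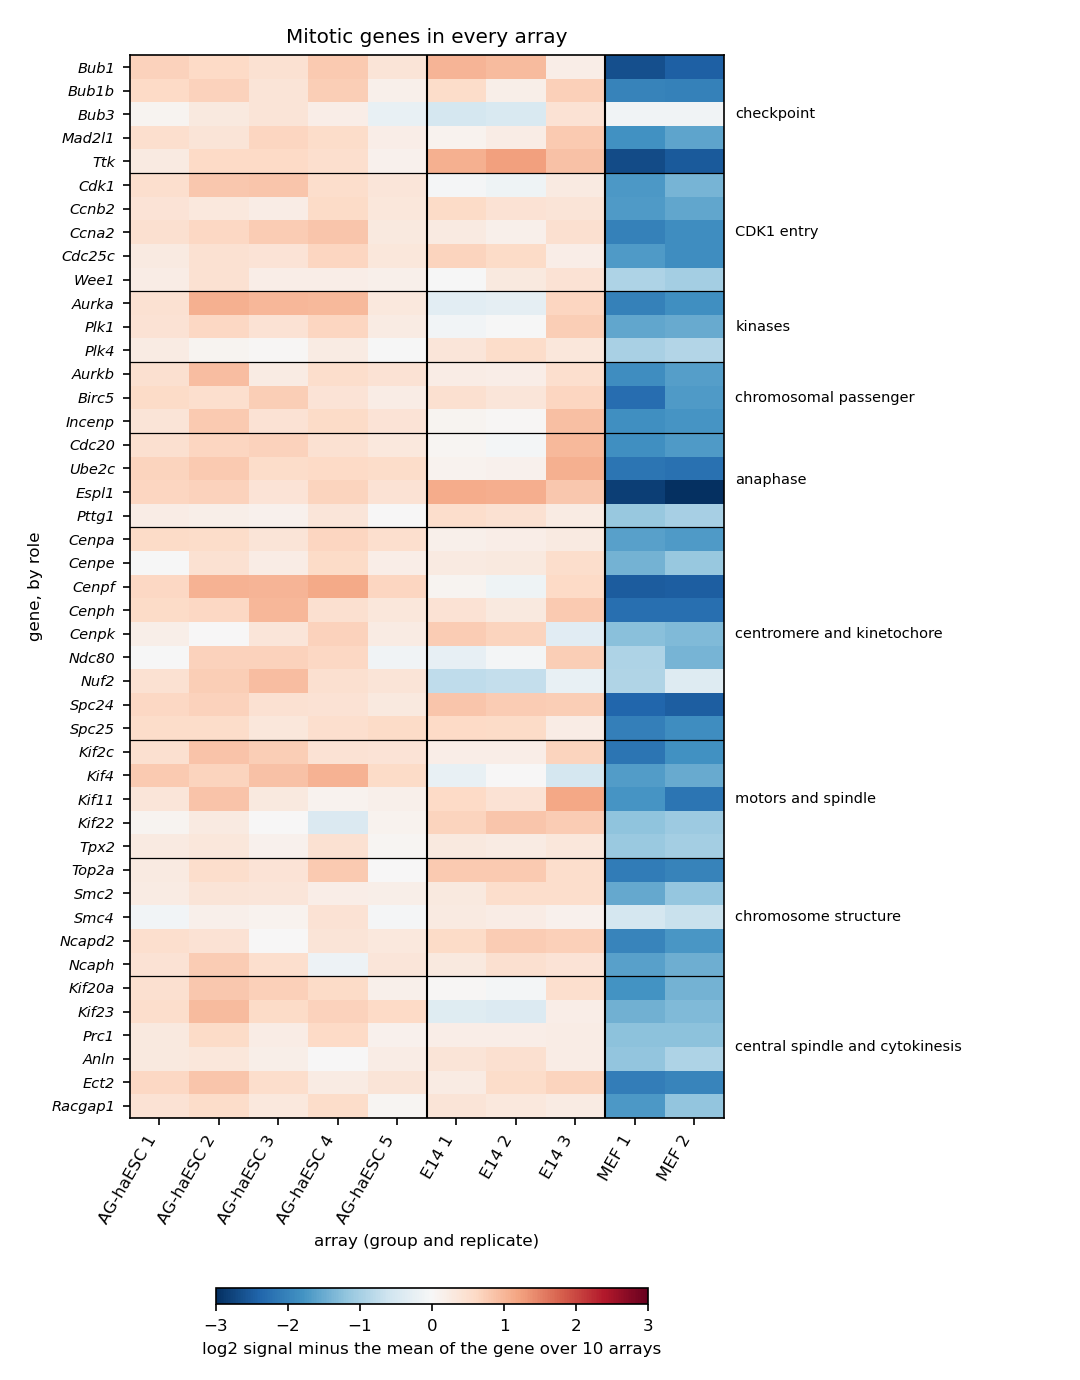
Heat map of the 45 genes measured (rows, grouped by role) in the 10 arrays (columns); colour is the log2 signal minus the mean of the gene over the 10 arrays, red above and blue below. Both MEF columns are blue for nearly every gene, except Bub3, which is pale throughout, and Nuf2, for which the E14 arrays are as pale or blue as the MEF arrays.

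Since these genes moved together between cell types, their promoters are shown for what they share. In the RefSeq table of build GRCm38.p6, 36 of the 45 genes had a promoter, from 250 bases before the annotated start to 50 after it. Promoters of late cell cycle genes are known for the cell cycle genes homology region, or CHR, searched here as the string TTTGAA or the variant TTTAAA or the variant TTCGAA, and for CCAAT boxes, which NF-Y binds. Both strands were searched, and overlapping matches were counted separately. A CHR string stood in 30 of the 36 promoters (83.3%, 95% Wilson interval 68.1 to 92.1) and in 29.0% of all 27025 genes of the table. CCAAT stood in 27 (75%, 58.9 to 86.2), against 37.9%, and both together in 25 (69.4%, 53.1 to 82.0), against 11.5%. Among the 10652 genes tested in these arrays with a promoter in the table, 8.37% had both. With TTTGAA as the only CHR string the counts were 26 of 36 and 18.1%. The list was chosen for known roles in mitosis, so these shares describe it and are no test.

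Promoters of 5 genes show the range, each 5′ to 3′ on the strand of the gene, with CHR strings and CCAAT boxes (ATTGG on the other strand) in capitals. Ccnb2 and Cdk1 make cyclin B2 and its kinase, Ube2c has the most CCAAT boxes beside Top2a, and Kif4 and Nuf2 are the genes called higher in AG-haESC.
Ccnb2 (chr9:70421505-70421804, minus strand): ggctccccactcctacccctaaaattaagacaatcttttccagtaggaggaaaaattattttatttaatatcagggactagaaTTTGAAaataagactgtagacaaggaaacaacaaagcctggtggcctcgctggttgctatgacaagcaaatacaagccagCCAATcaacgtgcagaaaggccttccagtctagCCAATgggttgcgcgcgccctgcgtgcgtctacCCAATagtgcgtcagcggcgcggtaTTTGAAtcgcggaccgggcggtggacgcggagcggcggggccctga
Cdk1 (chr10:69352863-69353162, minus strand): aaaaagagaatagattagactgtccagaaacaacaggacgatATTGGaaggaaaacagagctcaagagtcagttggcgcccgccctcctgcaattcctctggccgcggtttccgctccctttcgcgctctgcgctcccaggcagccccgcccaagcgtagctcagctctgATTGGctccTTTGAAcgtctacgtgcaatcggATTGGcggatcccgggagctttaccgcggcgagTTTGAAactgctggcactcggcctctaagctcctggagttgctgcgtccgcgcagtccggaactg
Ube2c (chr2:164769679-164769978, plus strand): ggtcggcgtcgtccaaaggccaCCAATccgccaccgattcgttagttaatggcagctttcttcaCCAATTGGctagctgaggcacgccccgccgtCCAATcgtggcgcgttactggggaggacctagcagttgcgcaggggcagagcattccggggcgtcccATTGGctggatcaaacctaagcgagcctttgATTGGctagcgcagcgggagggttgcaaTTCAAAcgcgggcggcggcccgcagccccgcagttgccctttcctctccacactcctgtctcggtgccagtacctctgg
Kif4 (chrX:100625815-100626114, plus strand): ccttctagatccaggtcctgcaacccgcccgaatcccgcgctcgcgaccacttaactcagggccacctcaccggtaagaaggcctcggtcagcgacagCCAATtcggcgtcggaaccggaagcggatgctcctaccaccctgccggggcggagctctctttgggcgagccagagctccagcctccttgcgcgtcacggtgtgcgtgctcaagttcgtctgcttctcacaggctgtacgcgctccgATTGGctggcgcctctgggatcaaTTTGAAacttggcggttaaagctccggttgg
Nuf2 (chr1:169531415-169531714, minus strand): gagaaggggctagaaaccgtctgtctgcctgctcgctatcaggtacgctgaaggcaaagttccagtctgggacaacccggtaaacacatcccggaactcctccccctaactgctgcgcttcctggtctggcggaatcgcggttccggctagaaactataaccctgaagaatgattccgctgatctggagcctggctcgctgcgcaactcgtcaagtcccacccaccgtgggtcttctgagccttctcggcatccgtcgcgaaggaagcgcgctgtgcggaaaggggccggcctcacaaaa
Ccnb2 and Cdk1 each held 2 CHR strings and 3 CCAAT boxes, Ube2c held 1 and 6 (of which 1 pair overlaps), and Kif4 held 1 and 2. The Nuf2 window held neither, as did those of Mad2l1, Pttg1 and Ncaph, which says only that these letters are not in this window. Each window is that of the first start listed for the gene. For Pttg1 (chr11:43425932-43426231) and Kif2c (chr4:117178723-117179022), both on the minus strand, it lay inside the gene. These genes end at 43427463 and 117182624, so the windows are not those of their outermost starts. Over the 36 promoters there were 47 CHR matches at a median position of -17 bases from the start and 55 CCAAT matches at a median of -65. Of these matches, 33 and 38 lay within 100 bases before to 50 after the start.

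**Figure D2:**
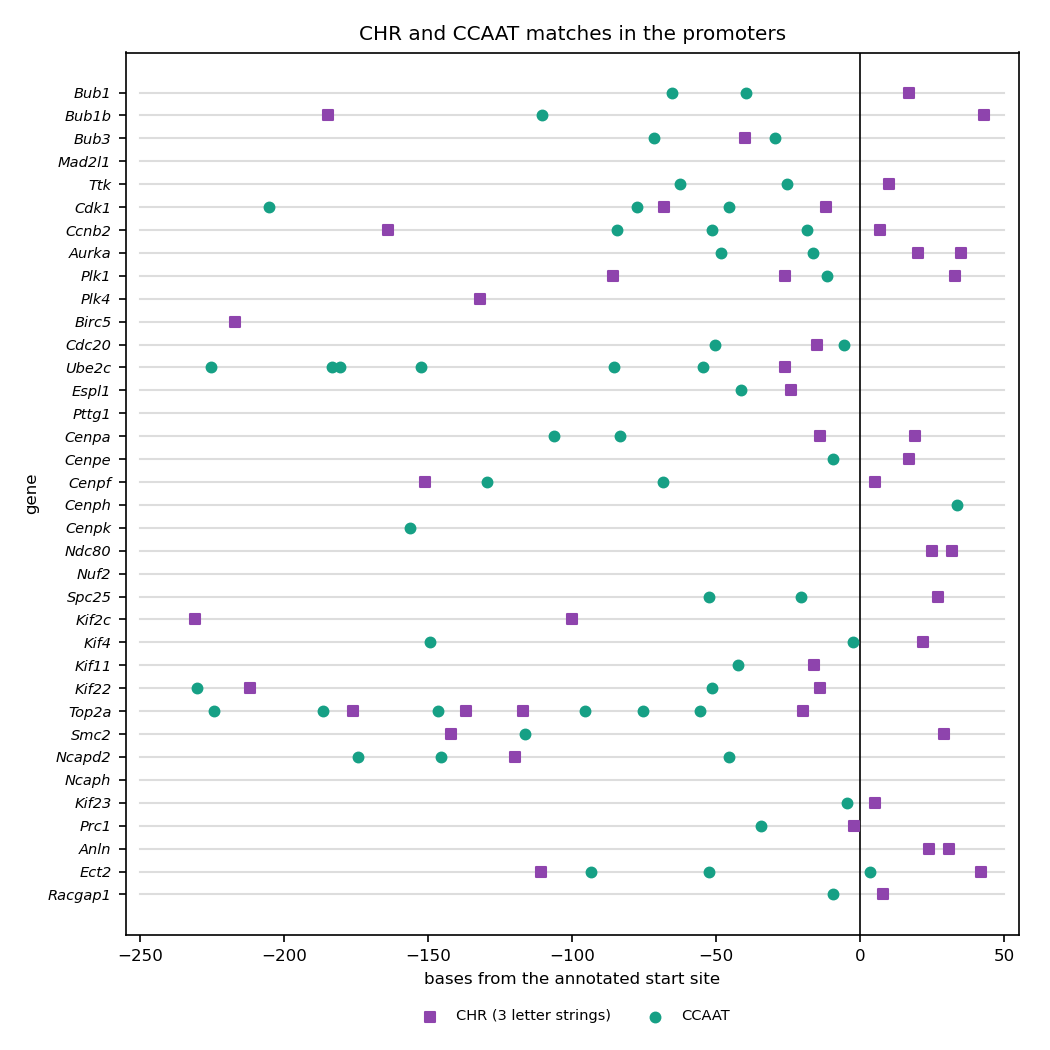
Positions of CHR strings (squares) and CCAAT boxes (circles) in the promoters of 36 genes (rows), by distance in bases from the annotated start site (negative before it). CHR matches gather around the start, with a median of -17, and CCAAT matches mostly before it, with a median of -65, while the rows of Mad2l1, Pttg1, Nuf2 and Ncaph are empty. The windows of Pttg1 and Kif2c lie inside the gene.

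Haploid and diploid stem cells were compared first, since the haploid state was the object of the study. The difference of AG-haESC minus E14 had a median of 0.041 over the 45 genes, against -0.082 over all genes, and ran from -0.75 (Kif22) to 1.16 (Nuf2). It was positive for 26 genes and negative for 19. At any size, 8 of the 45 had an adjusted p below 0.05, against 15.9% of all genes, and 6 of the 8 were positive. The 95% interval of the fit lay inside 2-fold in both directions for 39 of the 45 genes, which held for 54.5% of all genes. The groups' arrays did not overlap for 12 genes, 6 with all AG-haESC lines above all E14 arrays (9.87% of all genes) and 6 below (12.8%).

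**Figure D3:**
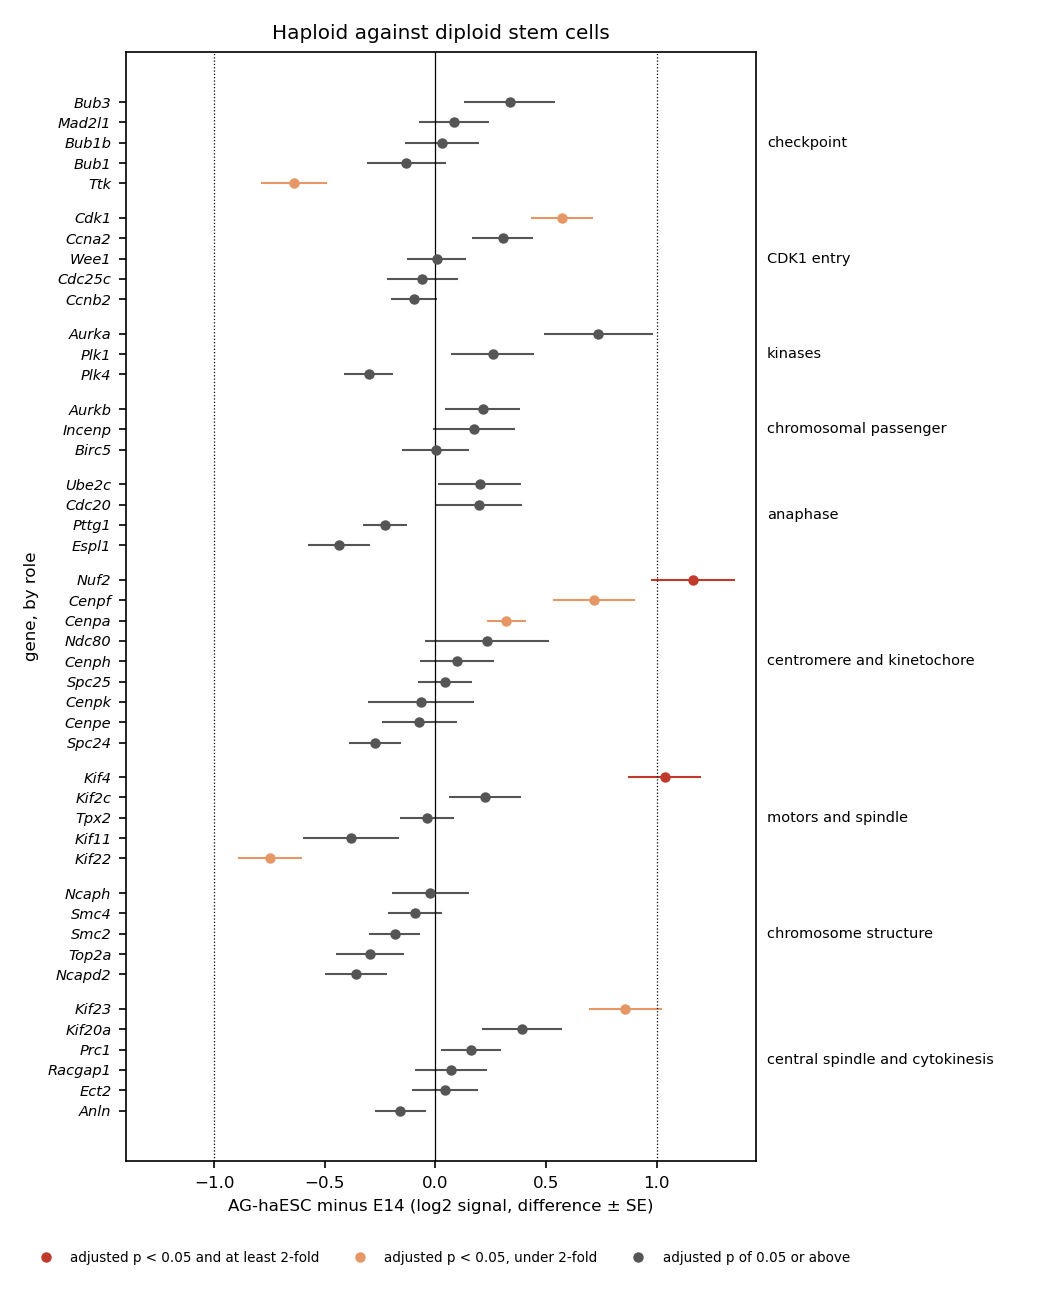
Difference of AG-haESC minus E14 in log2 signal (points, with the SE of the fit as bars) for the 45 genes, grouped by role; dotted lines mark 2-fold. Nuf2 and Kif4 lie beyond the right line at 1.16 and 1.04, 6 more genes (Kif23, Cenpf, Cdk1, Cenpa, Ttk and Kif22) pass the adjusted p at a smaller size, and all 5 chromosome structure genes sit left of 0.

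In the kinetochore, Nuf2 was the gene with the largest difference. Its levels were 10.30, 10.58, 10.75, 10.31 and 10.22 in AG-haESC replicates 1 to 5, 9.08, 9.12 and 9.61 in E14, and 8.94 and 9.44 in MEF. Every haploid line lay above every E14 array, and the E14 arrays overlapped the MEF arrays. The difference from E14 was 1.16 ± 0.19 (SE, limma adjusted p = 0.00212), or 2.24-fold. Nuf2 has 1 kept probe set, so no other set could be compared with it.

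The other subunits of the same Ndc80 complex, which clamps microtubule ends to the kinetochore, did not pass the test. Ndc80 ranged from 8.86 to 9.66 in AG-haESC and from 8.72 to 9.70 in E14, a difference of 0.23 ± 0.28 with a 95% interval of -0.38 to 0.84. Spc25 differed by 0.043 ± 0.12. Spc24 lay below E14 in every line, by -0.27 ± 0.12 (adjusted p = 0.141). Nuf2 was thus the subunit of the 4 with a call, and the differences between subunits were not tested.

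Cenpf, a large outer kinetochore protein made in G2, passed the adjusted p at under 2-fold. Its levels were 11.20, 11.61, 11.61, 11.72 and 11.23 in AG-haESC and 10.66, 10.44 and 11.17 in E14, so the groups parted narrowly, by 0.72 ± 0.18 (adjusted p = 0.0233). The other kept probe sets of Cenpf, which are dimmer, gave 0.027 and 0.41, both with overlap. Cenpa, the histone variant that marks centromeres, had the smallest difference among the genes that passed. It stood at 13.09, 13.08, 12.92, 13.16 and 13.03 in AG-haESC and at 12.68, 12.73 and 12.80 in E14, with no overlap, a difference of 0.32 ± 0.088 (adjusted p = 0.0305). Cenpe, Cenph and Cenpk, a motor and 2 proteins of the inner kinetochore, overlapped between the groups, with differences from -0.072 to 0.097.

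Among the motors, Kif4 was higher in AG-haESC. Its levels were 10.30, 10.18, 10.39, 10.57 and 10.10 in AG-haESC and 9.30, 9.52 and 8.99 in E14, so no line overlapped E14. The difference was 1.04 ± 0.17 (adjusted p = 0.00182), or 2.05-fold, just past the 2-fold limit. Without AG-haESC replicate 4 it was 0.97, and without E14 replicate 3 it was 0.90, both under 2-fold and both with an adjusted p below 0.05. Kif4 is the only X-linked gene of the 45, and it has 1 kept probe set. The 465 X-linked genes tested had a median difference of 0.69 and 22.8% of them were higher in AG-haESC, against -0.095 and 3.91% for 12732 autosomal genes. Of the X-linked genes, 70.5% had a smaller difference than Kif4. The part of the X chromosome in the Kif4 result was not tested.

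Kif22, a chromosome arm motor that pushes chromosomes to the spindle equator, had the most negative difference. It stood at 11.87, 12.04, 11.80, 11.34 and 11.90 in AG-haESC and at 12.45, 12.62 and 12.54 in E14, a difference of -0.75 ± 0.15 (adjusted p = 0.00573). All lines lay below all E14 arrays, though its other kept probe sets gave -0.14 and -0.21, and the brightest is of the type _x_at, which may also read similar transcripts. Kif11, the motor that pushes spindle poles apart, overlapped between groups (9.91 to 10.68 in AG-haESC, 10.26 to 10.97 in E14) with a difference of -0.38 ± 0.22 and an adjusted p of 0.263. Kif2c, a microtubule depolymerase, and Tpx2, a spindle assembly factor, differed by 0.22 and -0.038.

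The checkpoint genes did not move as a block. Ttk, the kinase that starts checkpoint signalling, stood at 10.71, 11.04, 11.04, 10.95 and 10.58 in AG-haESC and at 11.51, 11.68 and 11.32 in E14. Every line lay below E14, by -0.64 ± 0.15 (adjusted p = 0.0146), under 2-fold. Bub3, the adaptor that brings the checkpoint kinases to kinetochores, ranged from 12.22 to 12.84 in AG-haESC and read 11.93, 11.99 and 12.88 in E14, where replicate 3 alone lay above all haploid lines. Its difference was 0.34 ± 0.21 with an adjusted p of 0.304. Bub1, Bub1b and Mad2l1 differed by -0.13, 0.030 and 0.083, with intervals inside 2-fold.

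Among the genes of CDK1 and mitotic entry, Cdk1 itself passed the adjusted p. Its levels were 12.90, 13.19, 13.22, 12.92 and 12.77 in AG-haESC and 12.37, 12.26 and 12.65 in E14, with no overlap, a difference of 0.57 ± 0.14 (adjusted p = 0.0191) or 1.49-fold. Its cyclins Ccna2 and Ccnb2 gave 0.30 ± 0.14 (adjusted p = 0.161) and -0.098 ± 0.10. Wee1, which inhibits CDK1, and Cdc25c, which activates it, gave 0.0066 and -0.059.

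The mitotic kinases and the chromosomal passenger complex had no call. Aurka, the kinase of spindle poles, read 11.34, 11.95, 11.88, 11.87 and 11.22 in AG-haESC and 10.58, 10.62 and 11.54 in E14. E14 replicate 3 lay among the haploid lines and the other E14 arrays below all of them. The difference was 0.74 ± 0.25 with an adjusted p of 0.0635, and without E14 replicate 3 it was 1.05 (adjusted p = 0.00483). Plk4, which starts centriole duplication, stood at 11.12 to 11.37 in AG-haESC and at 11.49, 11.67 and 11.47 in E14, below E14 in every line by -0.30 ± 0.11 (adjusted p = 0.0879). Plk1 gave 0.26 ± 0.19. Birc5, the survivin subunit of the passenger complex, had nearly the same mean in both groups, 12.80 ± 0.19 and 12.80 ± 0.15 (SD, n = 5 and n = 3), with an interval of the difference from -0.33 to 0.33. Aurkb and Incenp of the same complex gave 0.21 and 0.17.

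The anaphase genes fell on both sides of 0. Espl1, the protease separase, stood at 10.65, 10.68, 10.39, 10.65 and 10.42 in AG-haESC and at 11.09, 11.09 and 10.79 in E14. All lines lay below E14, by -0.44 ± 0.14, with an adjusted p of 0.0543. Pttg1, the securin that holds separase inactive, gave -0.23 ± 0.10 (adjusted p = 0.145). Another kept probe set of Pttg1 (1424105_a_at) gave -0.43, with every line below E14 (limma adjusted p = 0.0412 over all kept probe sets). The remaining set gave -0.096, with overlap. Cdc20, the activator of the anaphase-promoting complex, and Ube2c, its ubiquitin-conjugating enzyme, gave 0.20 and 0.20, and in both E14 replicate 3 had the highest level of the 8 stem cell arrays (14.25 and 13.74).

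All 5 chromosome structure genes had negative differences, none past the test. Top2a, the topoisomerase that disentangles sister chromatids, read 12.82, 13.09, 12.96, 13.33 and 12.56 in AG-haESC and 13.34, 13.34 and 13.08 in E14, with overlap, a difference of -0.30 ± 0.15 (adjusted p = 0.216). The condensin subunits Smc2, Smc4, Ncapd2 and Ncaph gave -0.18, -0.094, -0.36 and -0.023. Of these, Ncapd2 alone lay below E14 in every line.

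In the central spindle and cytokinesis group, Kif23 came near the call. This motor forms the centralspindlin complex with Racgap1. Kif23 stood at 10.89, 11.32, 10.96, 11.08 and 10.96 in AG-haESC and at 10.01, 9.97 and 10.57 in E14, with no overlap. The difference was 0.86 ± 0.16 (adjusted p = 0.00512), or 1.81-fold, and 1.05 without E14 replicate 3. Its second kept probe set gave 0.67. Racgap1 differed by 0.071 ± 0.16. Anln, the actin-binding anillin of the contractile ring, ranged from 12.01 to 12.35 in AG-haESC and from 12.22 to 12.49 in E14 and differed by -0.16 ± 0.11. Kif20a, Prc1 and Ect2 gave 0.39, 0.16 and 0.041.

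Several genes had more than 1 kept probe set, and for the comparison of stem cells these often disagreed. Over all kept probe sets, 4 of the 96 were higher in AG-haESC and 2 lower, against 7.26% of all 27505 called in either direction. Among the 73 that lay above the array median in every array, 2 were higher and 0 lower. Of the 31 genes with several sets, the sign was the same in all sets of 11. The sets apart from the brightest were not all dim, and many of them lay above the array median in every array. A second set of Cenpa (1444416_at) read 8.13 to 8.94 in AG-haESC and lay below the array median in every E14 array, so that it was at least 5.99-fold higher in AG-haESC. A second set of Bub1 (1438571_at) read 8.15 to 9.01 in AG-haESC and 5.50 to 6.96 in E14, a difference of 2.48, whereas the brightest set gave -0.13. A second set of Aurka (1440129_at) lay below the array median in every AG-haESC array and was at least 1.42-fold lower there, whereas the brightest set gave 0.74. The dimmer set of Ttk (1442594_at) gave -1.20, the same sign as the brightest. Which transcripts these sets read was not stated in the sources used here. For 12 genes the brightest set is of the type _x_at or _s_at, which may match near-identical transcripts.

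**Figure D4:**
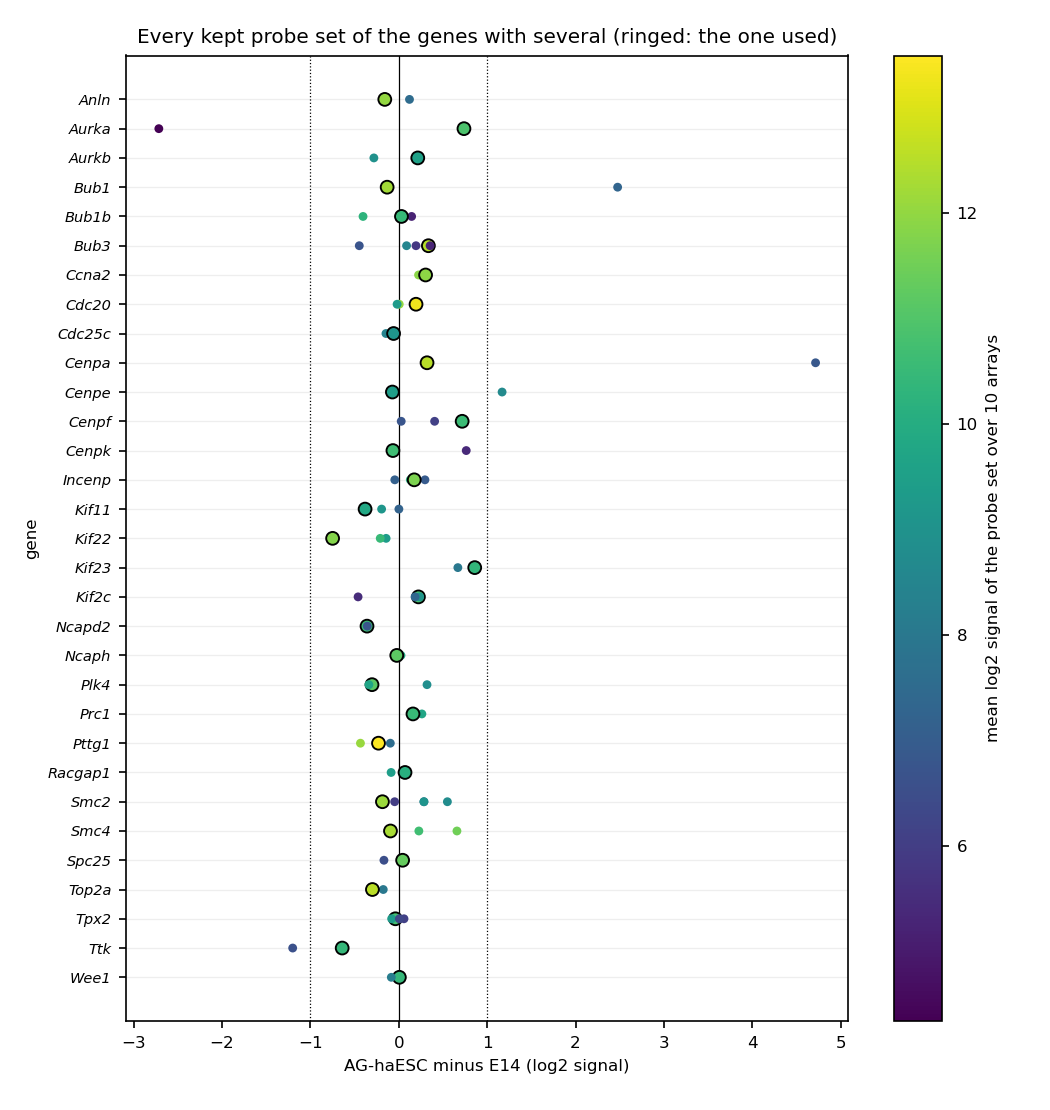
Difference of AG-haESC minus E14 in log2 signal for every kept probe set of the 31 genes that have several (rows); ringed points are the sets used for the gene, colour is the mean log2 signal over 10 arrays, and dotted lines mark 2-fold. The ringed points lie between the dotted lines, and the points far outside, for Cenpa (4.72), Bub1 (2.48) and Aurka (-2.71), are dim sets.

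The overall level of these genes varied between arrays within each stem cell group. The median of the gene-centred levels over the 45 genes was 0.45, 0.60, 0.41, 0.52 and 0.29 in AG-haESC replicates 1 to 5, 0.27, 0.28 and 0.50 in E14, and -1.73 and -1.58 in MEF. Replicate 5, the line AGH-OG-4, was the lowest of the 5 lines for 27 of the 45 genes, against 17.6% of all genes, and lay above the mean of the lines for 3. Replicate 2 lay above that mean for 39 and replicate 4 was the highest for 18. Replication and G1/S genes, a list of 17 that peak earlier in the cycle, gave 0.45, 0.42, 0.48, 0.51 and 0.23 in the same lines, lowest in replicate 5 too. In E14, replicate 3 was the highest for 27 of the 45 genes, against 34.7% of all genes. The 3 arrays of the single E14 line spread from 0.27 to 0.50, beside 0.29 to 0.60 over the 5 haploid lines. Each line has 1 array, so line, passage, transgene and array-to-array variation cannot be told apart. The median SD of the 45 genes was 0.20 in AG-haESC and 0.22 in E14, against 0.29 and 0.33 over all genes, and over E14 replicates 1 and 2 alone it was 0.061, against 0.12 over all genes.

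Against fibroblasts, the differences were large and ran one way. AG-haESC minus MEF had a median of 2.19 over the 45 genes, against 0.0045 over all genes, and E14 minus MEF had 1.96, against 0.080. By limma no gene of the 45 was lower than MEF in either comparison, where 22.5% and 21.3% of all genes were, and 0 were below MEF at an unadjusted p under 0.05. Over all genes, 42.2% and 42.1% were called in either direction. These comparisons share the MEF arrays, and the values of each are given side by side.

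**Figure D5:**
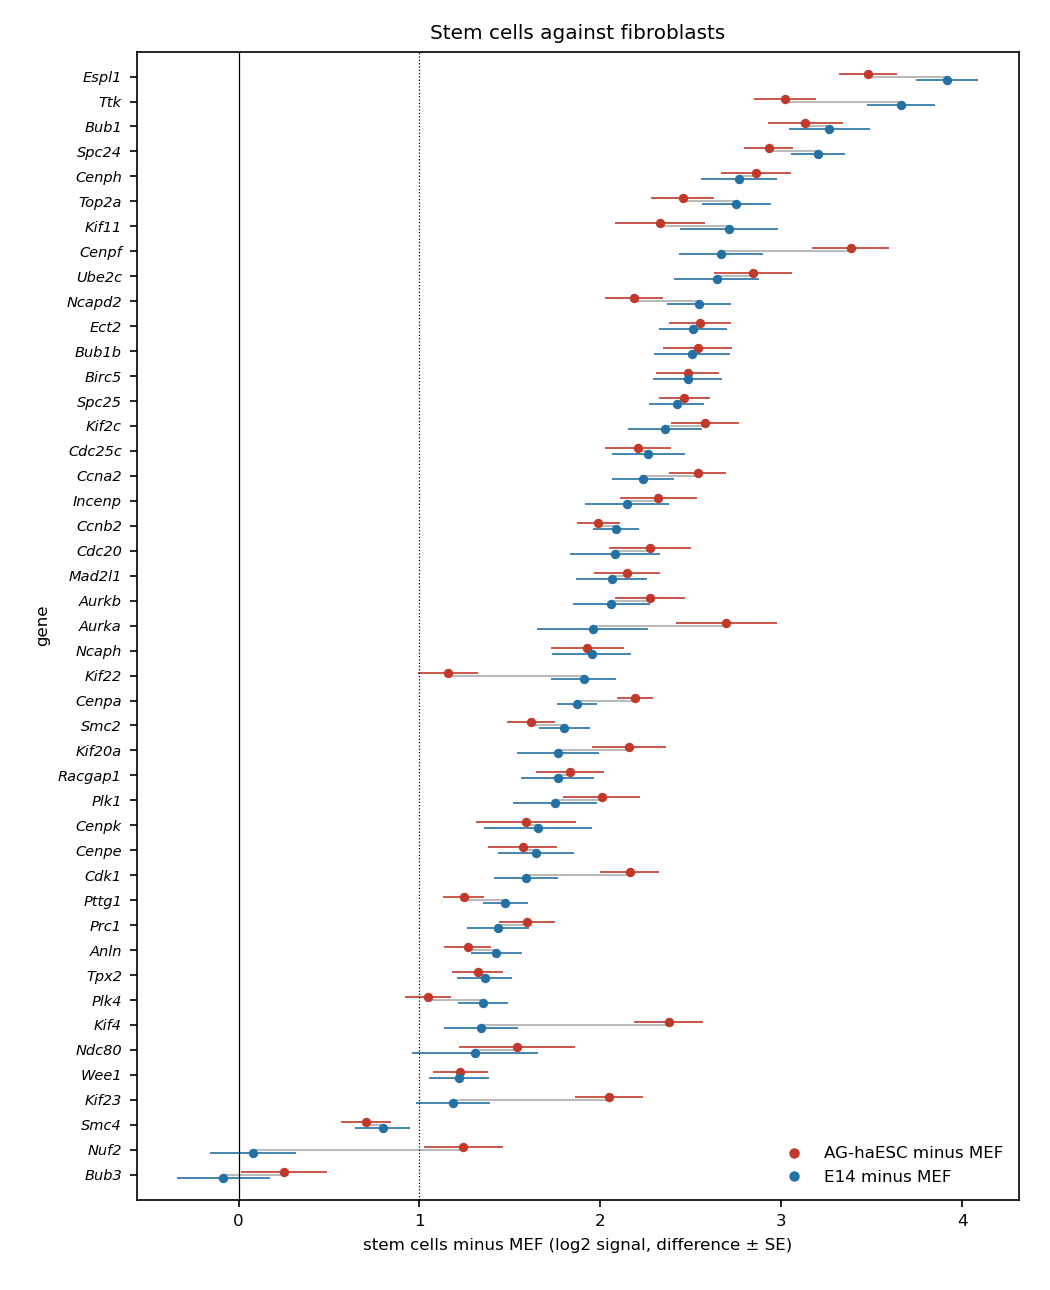
Difference in log2 signal of AG-haESC minus MEF (red) and E14 minus MEF (blue) for the 45 genes (rows), ordered by the E14 difference; bars are the SE of the fit and the dotted line marks 2-fold. Most pairs lie close together right of the dotted line, Espl1 at the top reaches 3.48 and 3.92, and at the bottom Nuf2 parts into 1.24 and 0.08 while Bub3 stays near 0.

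In both comparisons Espl1, of the anaphase genes, differed most from MEF. The checkpoint genes Ttk and Bub1 followed in E14, while in AG-haESC the kinetochore gene Cenpf came second. Espl1 read 7.18 and 6.98 in MEF against 10.39 to 10.68 in AG-haESC and 10.79 to 11.09 in E14, differences of 3.48 ± 0.16 (adjusted p = 1.68e-08) and 3.92 ± 0.17 (adjusted p = 2.37e-08). Ttk read 7.75 and 7.92 in MEF, 3.02 below AG-haESC and 3.66 below E14. Bub1, the checkpoint kinase that marks inner centromeres, read 9.57 and 9.77 in MEF against 12.60 to 13.01 and 12.40 to 13.23, and differed by 3.13 and 3.27. For all of these genes, every stem cell array lay above both MEF arrays at the probe set used. The second kept set of Bub1 (1438571_at) lay below the array median in both MEF arrays. At that set AG-haESC was at least 6.20-fold higher, while E14 overlapped MEF (limma adjusted p = 0.319 over all kept probe sets). Ube2c read 10.48 and 10.45 in MEF against 13.23 to 13.48 and 12.78 to 13.74, and differed by 2.84 and 2.64. Pttg1 gave smaller differences of 1.24 and 1.47, from 12.35 and 12.49 in MEF.

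At the kinetochore, Cenpf (8.08 and 8.10 in MEF) differed by 3.38 from AG-haESC and by 2.67 from E14. Spc24 (8.54 and 8.46 in MEF) differed by 2.93 and 3.20, and Cenph (8.09 and 8.08 in MEF), of the inner kinetochore, by 2.86 and 2.76. Cenpa, at 10.90 and 10.83 in MEF, differed by 2.19 and 1.87. Nuf2 was the exception among the 9 genes of this role: it was higher in AG-haESC by 1.24 ± 0.22 (adjusted p = 0.00044), and E14 minus MEF was 0.078 ± 0.24 (adjusted p = 0.799). Without MEF replicate 1 the AG-haESC difference of Nuf2 was 0.99, under 2-fold. The subunits that bind Nuf2 were higher than MEF in both comparisons, Ndc80 by 1.54 and 1.31, Spc24 as above and Spc25 by 2.47 and 2.42. Ndc80 in E14 lost the call without MEF replicate 2 (1.07, adjusted p = 0.0778).

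Aurka read 8.86 and 9.05 in MEF and differed by 2.70 and 1.96, and Plk4, at 10.15 and 10.24, by 1.05 and 1.35. The Plk4 difference from AG-haESC was 0.9994 without MEF replicate 1 and no longer 2-fold. Cdk1 read 10.66 and 11.01 in MEF and differed by 2.16 and 1.59. Birc5 read 10.02 and 10.60 and differed by 2.48 in both comparisons. Among the motors, Kif4 (7.84 and 8.02 in MEF) differed by 2.38 and 1.34, Kif11 (8.06 and 7.62) by 2.33 and 2.71, and Kif22 (10.58 and 10.69) by 1.16 and 1.91. Top2a, at 10.45 and 10.55 in MEF, differed by 2.45 and 2.75, Anln, at 10.82 and 11.08, by 1.27 and 1.43, and Kif23, at 8.93 and 9.06, by 2.05 and 1.19. The last value was 0.99 without E14 replicate 3.

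At the probe set used, Bub3 and Smc4 were the genes not called in either comparison with MEF. Bub3 read 12.35 in both MEF arrays, inside the range of the stem cells, with differences of 0.25 ± 0.24 (adjusted p = 0.382) and -0.083 ± 0.26 (adjusted p = 0.804). A dimmer kept set of Bub3 (1459104_at) was called higher than MEF in both comparisons. It lay below the array median in both MEF arrays and was at least 1.84-fold higher in AG-haESC and 2.50-fold in E14. The remaining kept sets of Bub3 were not called. Smc4, the condensin ATPase, read 11.77 and 11.63 in MEF, below all stem cell arrays, with differences of 0.70 ± 0.14 (adjusted p = 0.00104) and 0.80 ± 0.15 (adjusted p = 0.000907), both under 2-fold. Its partner in the condensin core, Smc2, was higher by 1.62 and 1.80.

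By role, all 5 measured genes of CDK1 entry, all 3 kinases, all 3 passenger genes, all 4 anaphase genes, all 5 motor and spindle genes and all 6 cytokinesis genes were higher in both stem cell groups than in MEF. So were 4 of 5 checkpoint and 4 of 5 chromosome structure genes. Of the 9 centromere and kinetochore genes, 9 were higher in AG-haESC and 8 in E14. The median difference ran from 1.93 (chromosome structure) to 2.56 (anaphase) for AG-haESC and from 1.60 (cytokinesis) to 2.51 (checkpoint) for E14. All 96 kept probe sets had a positive difference in AG-haESC minus MEF, 81 of them called higher (39.2% of all probe sets were called in either direction). In E14 minus MEF 77 were higher and 1 was lower (38.9% called), the dim set of Cenpa.

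A further 113 genes of the same pathways were listed, of which 109 were tested. In AG-haESC minus E14 none of them was higher and 1 was lower, with a median of -0.082. At an unadjusted p under 0.05, 10 were above E14 and 17 below (9.17% and 15.6%), against 13.4% and 17.2% of all genes. The gene called lower was Oip5, which helps to load Cenpa at centromeres: it stood at 8.35 ± 0.14 in AG-haESC and 9.90 ± 0.13 in E14 (SD, n = 5 and n = 3), a difference of -1.55 ± 0.16 (adjusted p = 0.000125), and at 6.21 ± 0.11 in MEF (n = 2). Cenpa itself had a positive difference under 2-fold at the probe set used and was not called. In AG-haESC minus MEF 65 of the 109 were higher and 1 lower, with a median of 1.43, and in E14 minus MEF 67 were higher and 0 lower, with a median of 1.48, where 6 had an unadjusted p under 0.05 below MEF.

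The 2 largest fitted differences of E14 minus MEF are named for each of these lists. In the checkpoint list they were Zwilch (2.82) and Kntc1 (2.60), subunits of the complex that recruits dynein to kinetochores. In the kinetochore list they were Oip5 (3.69) and Cenpp (3.07). The cohesion list was led by Esco2 (4.67), which acetylates cohesin, and Cdca5 (3.64), the cohesin protector sororin. Among the motors, Kif18a gave 3.08. Kif14, also named by the rule, lay below the array median in both MEF arrays and 1 E14 array, was at least 1.13-fold higher in E14 and has no rank. Mitotic entry and exit was led by Ccnf (3.84) and Fbxo5 (3.13), the inhibitor of the anaphase-promoting complex. The list headed chromosome structure was led by Cdca3 (2.85) and Ncapg (2.80), and the list of cytokinesis and centrioles by Cep55 (2.70), the abscission factor, and Cep192 (2.37). The headings name the lists, and the role of each gene in them was not checked.
Among transcription factors of mitotic genes, Mybl2, which joins the activating complex at CHR promoters, gave 5.04 ± 0.28 (adjusted p = 1.08e-07) with 1 MEF array below its median, and Nfyb, a subunit of the CCAAT binder NF-Y, gave 2.56. In AG-haESC minus E14 these were 0.19 and -0.55, neither called. Of the 17 replication and G1/S genes, 13 were higher in AG-haESC and 15 in E14 than in MEF, led by Orc1 (3.66) and Mcm5 (3.01) in E14, and 0 of 17 were called between AG-haESC and E14 (6 at an unadjusted p under 0.05, of which 4 were below E14).

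Marker genes of the cell types were read in the same arrays. All 8 pluripotency genes were higher in both stem cell groups than in MEF, where 7 of the 8 lay below the array median in each array. In AG-haESC minus E14, 1 of the 8 was lower and 0 were higher, against 3.74% and 4.58% of all genes. The fibroblast list (11 of 12 tested) was lower in stem cells for all 11 genes. Between the stem cells, 6 of the 11 were higher in AG-haESC and 0 lower, against 4.58% and 3.74% of all genes. The difference was positive for 8 of the 11 and negative for 3, from -0.72 to 3.14. Gene-centred medians of the list were -1.27, -0.05, -0.06, -1.14 and -0.13 in AG-haESC, -2.23, -1.35 and -1.69 in E14, and 4.57 and 4.43 in MEF. The number of fibroblast genes below the array median was 0 or 1 per AG-haESC array, 3 to 6 per E14 array and 0 per MEF array. For Col1a1, a collagen chain, the levels were 6.96 to 9.10 in AG-haESC, 2.87 to 5.96 in E14, below every array median there, and 13.60 and 13.63 in MEF. The part of these transcripts in the differences of mitotic genes between AG-haESC and E14 was not tested.

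The other marker lists differed in direction: macrophage and muscle genes were mostly lower in stem cells than in MEF, and endothelial and germ layer genes went both ways. Of 6 macrophage genes, 3 or 4 lay below the array median in each stem cell array and 0 in MEF, and 4 were lower than MEF in each stem cell group. Between the stem cells 1 of them, Fcgr3, was called, with every array of both groups below its median, so no size is given. Of 5 muscle genes, 5 were lower in AG-haESC and 4 in E14 than in MEF, and none differed between the stem cells by the test (0 at an unadjusted p under 0.05). Of 3 endothelial genes tested, 2 were higher in both stem cell groups than in MEF, and 1 was lower in AG-haESC and 0 in E14. Between the stem cells 0 differed by the test (0 at an unadjusted p under 0.05). Of 5 germ layer genes tested, 1 was higher and 2 were lower than MEF in each group, with no call between the stem cells (2 at an unadjusted p under 0.05).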

How the data were processed

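RNA of 10 samples was measured on 1-colour arrays. Per probe set, the authors deposited a linear signal intensity, made with MAS5 per the submitters' processing notes, with no version stated. The 2% trimmed mean was 500 in every array, so values are relative within an array and a change of total RNA per cell cannot be seen. Low signals hold much background.

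Signals were taken to log2. The 64 control probe sets were left out. Probe sets above the array median in at least 2 arrays (27505) were kept, and among those with 1 gene symbol the one with the highest mean represented its gene. Of 45101 probe sets, 34945 had 1 symbol, 932 several and 9160 none listed. The test was limma 3.58.1 (R 4.3.3) on 3 group means, 7 residual degrees of freedom, a prior variance that follows the signal, and two-sided p-values adjusted by Benjamini-Hochberg over 13251 genes. The fit was tested on simulated data.

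The genes and lists were chosen with earlier results of these data known. Genes were named by rule: every gene called between AG-haESC and E14, the 4 highest and 4 lowest differences there, the 8 largest in each comparison with MEF, the brightest of each role, and, of the other lists, those called between AG-haESC and E14 and the 2 largest differences of E14 from MEF. Other genes are given by value alone, and the extra probe sets, Col1a1 and Fcgr3 were chosen after their values were seen. The AG-haESC arrays are separate lines and the E14 arrays are of 1 line, so p-values hold no spread between diploid lines. The number of arrays limits the precision. Alternatives were normalization, filter, floor, pseudocount, probe set rule, array weights, prior, groups in the fit, a replicate block and each array left out.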

Additional observations from a re-analysis of the deposited data

How the results depend on the processing

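The 43 and 42 genes higher than MEF became 41 to 43 and 41 to 42 when any 1 array was left out. The count higher in AG-haESC than in E14 ranged from 1 (without AG-haESC replicate 4, where Kif4 was 0.97) to 3 (without E14 replicate 3, where Kif23 and Aurka joined Nuf2 and Kif4 dropped out). Array weights made the same exchange, with Aurka at 1.02, Kif23 at 1.04 and Kif4 at 0.93. Calls over all genes rose in these settings too, from 8.32% in the main fit to 10.2% without E14 replicate 3 and 12.9% with array weights. Without AG-haESC replicate 4 they were 8.25%. Probe set choice moved most: the mean of the kept sets and the dimmest set each gave 4 higher genes, and the dimmest gave 2 lower and left 36 and 33 genes higher than MEF. Over all genes, 8.35% and 7.89% were called between the stem cells under the mean and the dimmest set. Under the mean, Aurka became -0.99 in AG-haESC minus E14, and in E14 minus MEF Bub3 became 0.75 and Cenpa -0.46. Under the dimmest set, Aurka was -2.71 and Kif11 0.0012 in AG-haESC minus E14, Bub3 was 1.14 and Cenpa -2.79 in E14 minus MEF, and 1 gene was lower than MEF in E14. The median of AG-haESC minus MEF, 2.06 to 2.26 with 1 array left out, was 1.99 under the mean and 1.94 under the dimmest set. That of E14 minus MEF, 1.86 to 2.10 with 1 array left out, was 1.75 under the dimmest. Bub3 in E14 minus MEF, uncalled in every setting at the gene level, ran from -0.39 (without E14 replicate 3) to 0.087 with 1 array left out. It was positive without E14 replicate 1 (0.087) or 2 (0.054). The causes were not tested, except that the dim sets are other probes. Filter, floor, pseudocount, quantile or median scaling, prior and groups in the fit changed no call of a member. With the replicate number as a block, E14 replicate 3 is alone in its block and so drops out of the difference. This fit is thus no check apart from leaving that array out. It gave 41 genes higher in E14 than in MEF (median 1.86), with Kif23 at 0.99, as without E14 replicate 3. E14 replicate 1 minus 2 and MEF replicate 1 minus 2 did not go together across genes (r = -0.026 over 13251 genes, which are not independent). With 1 such difference in each group, this cannot show whether same-numbered samples shared a batch.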
